A study of Homo sapiens with 45 samples.

Results

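Transcripts of 9 proteins that sit on the surface of human pluripotent stem cells or hold them to each other and to their matrix were followed in single cells of H1. The genes were CD24, THY1, PODXL, EPCAM, CDH1, CLDN6, GJA1, ITGA6 and ITGB1, taken by symbol from the 23045 rows of the deposited tables, and all 9 were listed. H1 is an established human embryonic stem cell line, here at passage 40, kept on Matrigel in mTESR1 medium and brought into suspension with Accutase. The 45 cells comprised 12 fixed cells (labelled DAPI+) prepared by FRISCR, 15 live cells (DAPI-) prepared by FRISCR, 7 fixed cells lysed with Triton X-100 and 11 live cells lysed with Triton X-100. FRISCR, fixed and recovered intact single-cell RNA, is a way to purify RNA from crosslinked cells before cDNA is made, and the study compared it with simple detergent lysis as a proof of principle. All cells were of 1 line and no label tells cultures apart. Each group is therefore 1 sample, cells do not serve as replicates, and the differences below carry no p-value.

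Human embryonic stem cells grow as an epithelium-like sheet. E-cadherin (CDH1) and EPCAM join neighbouring cells, claudin-6 (CLDN6) belongs to the tight junction, connexin 43 (GJA1) forms gap junction channels, and the integrin pair of ITGA6 and ITGB1 binds laminin in the matrix. CD24 and THY1 (CD90) are held in the membrane by a glycosylphosphatidylinositol (GPI) anchor, and podocalyxin (PODXL) is the heavily glycosylated protein that carries the TRA-1-60 and TRA-1-81 epitopes used to sort pluripotent cells.

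CD24, the most abundant of the 9 transcripts, encodes a very short protein and has near-identical processed copies elsewhere in the genome, which bears on how its reads can be counted. Its coding sequence is 243 bases long and differs from the copy CD24P4 at 2 positions, shown in capitals, an identity of 99.2%. The sequence is that of GENCODE release 29 on GRCh38, from the minus strand of chromosome 6, written 5′ to 3′.
CD24: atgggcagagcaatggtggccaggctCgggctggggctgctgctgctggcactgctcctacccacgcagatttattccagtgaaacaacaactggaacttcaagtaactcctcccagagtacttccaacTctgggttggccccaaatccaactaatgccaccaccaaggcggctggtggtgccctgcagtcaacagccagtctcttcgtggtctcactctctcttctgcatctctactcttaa
Other copies were less alike, with 94.0% identity for CD24P2 and 85.6% for CD24P1, and GJA1P1 matched 1109 of 1143 aligned bases of GJA1. None of these copies has a row in the deposited tables, so whether reads from them were added to CD24 and GJA1, or shared reads were dropped, cannot be told and the levels of both genes are uncertain to that extent. The deposited tables were made on GRCh37, not GRCh38, and which locus of that build their CD24 row stands for is not given.

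Total counts ranged from 3388417 to 6594043 per cell over the 45 cells. Stem cell markers were present throughout: 12 of 12 stem cell markers had counts in the fixed FRISCR, live FRISCR and fixed Triton groups and 11 of 12 in live Triton cells, with TDGF1, POU5F1, LIN28A and L1TD1 as the leading genes. Summed stem cell markers ranged over cells from 1283 to 2678 CPM (counts scaled to a total of 1000000) in fixed Triton cells and from 3637 to 7799.6 CPM in live FRISCR cells, the widest of the other ranges. Markers of other cells were not all absent. Of 10 fibroblast markers 5 had counts in fixed FRISCR and 5 in live FRISCR cells, and 2 in fixed Triton and 4 in live Triton cells, led by COL1A1 and COL1A2, while COL3A1, DCN, LUM, POSTN and TWIST1 were at 0 in every group. Their sum ranged over cells from 0 to 401 CPM in fixed FRISCR, 58.1 to 528 in live FRISCR, 0 to 102 in fixed Triton and 32.3 to 259 in live Triton cells. Of 7 neural markers 3 had counts in fixed Triton cells and 4 in each other group, led by PTPRZ1, which by itself had 243 CPM in fixed FRISCR, 386 in live FRISCR, 124 in fixed Triton and 380.3 in live Triton cells, while SOX1, HES5 and NEUROG2 were at 0. The part of such cells or transcripts in the results was not tested. No endoderm or mesoderm marker reached 20 CPM in any group, and of the trophoblast markers only KRT7 did, at 23.4 CPM in fixed FRISCR cells. Fixed Triton cells stood apart from the rest. After thinning to 1000000 counts they had 4166 to 6650 genes with a count, against 8809 to 10276 in live Triton cells, and fixed FRISCR cells had 7979 to 9962, against 8361 to 10305 in live FRISCR cells. The row TVAS5 took 16.2% to 33.0% of the counts of fixed Triton cells and 2.76% to 13.0% of those of live Triton cells, against at most 1.77% in any FRISCR cell. The sample titles also carry 1 of 2 code numbers, called title code sets 1 and 2 here, whose meaning is not given. They split the fixed FRISCR cells 6 and 6, the live FRISCR cells 8 and 7, the fixed Triton cells 4 and 3, and the live Triton cells 5 and 6.

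The 9 transcripts spanned a wide range of abundance. In TPM, the authors' unit scaled to transcript length and library size, the medians over live FRISCR cells were 2319 for CD24, 956 for CLDN6, 358 for THY1, 298 for EPCAM, 172 for GJA1, 164 for PODXL, 117 for ITGB1, 98.7 for CDH1 and 45.8 for ITGA6. CD24 stood 53rd and CLDN6 170th among all rows of the table by median TPM, and ITGA6 stood 2807th. From THY1 down to CDH1 the middle 50% of cells of each gene overlapped those of the next gene in this order, whereas CD24 was clear of CLDN6, CLDN6 of THY1, and CDH1 of ITGA6.

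Fixed FRISCR cells gave the same order, with medians between 2016 TPM for CD24 and 45.2 TPM for ITGA6, and in them EPCAM was also clear of GJA1 while CDH1 overlapped ITGA6. In live Triton cells the 4 highest were again CD24 (1337 TPM), CLDN6 (927), THY1 (375) and EPCAM (266), but GJA1 (79.3) and PODXL (77.2) came after ITGB1 (109) and CDH1 (91.3), and CD24 overlapped CLDN6. Fixed Triton cells had CD24 first at 588 TPM, then THY1 at 101 TPM and CLDN6 at 77.9 TPM, while EPCAM came last with a median of 0. There every gene below CD24 overlapped its neighbour in the middle 50% of cells.

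**Figure D1:**
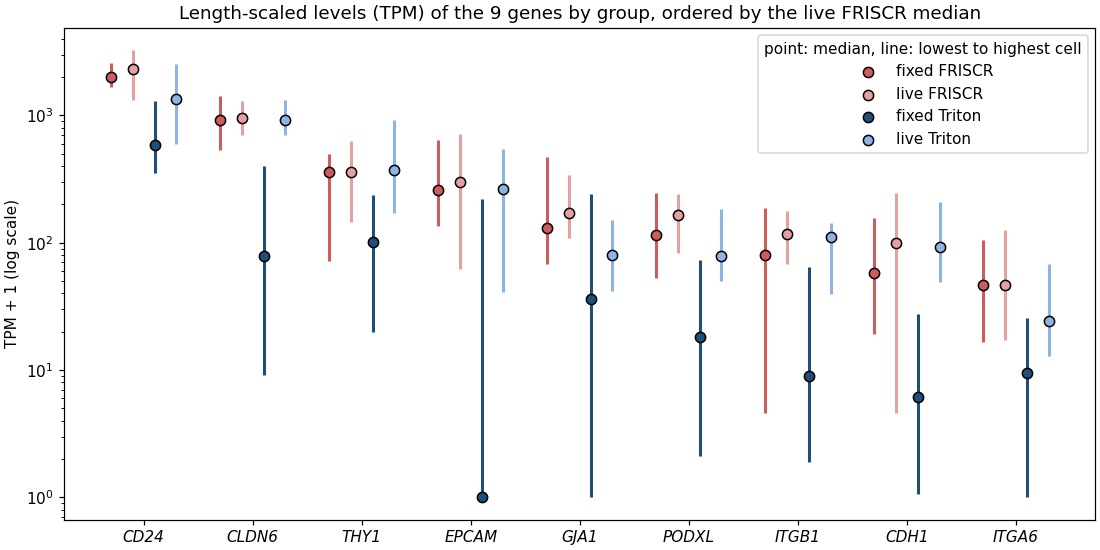
Median TPM (points, plus 1, log axis) and the lowest to highest cell (lines) of the 9 genes in fixed FRISCR, live FRISCR, fixed Triton and live Triton cells. CD24 is highest in all 4 groups, and for every gene the line of fixed Triton cells reaches lower than those of the other groups.

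Fixation under FRISCR left the 9 transcripts near their live levels. The ratios of summed CPM, fixed over live, ran from a log2 of -0.42 for CDH1 to 0.14 for ITGA6, and 0 of 9 genes were past 2-fold. Of the 7518 genes that reached 20 CPM in the summed counts of fixed or of live cells, 7.69% were past 2-fold on the lower side in fixed FRISCR cells and 3.34% on the higher side. The median log2 ratio was -0.06 over the 9 genes and -0.02 over all genes compared. Of the 9 ratios 8 were below 0, but only 5 had the same sign in both title code sets, so no direction is given for single genes here.

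Under Triton lysis most of the 9 transcripts were lower in fixed cells. PODXL, EPCAM, CDH1, ITGB1, THY1 and CLDN6 were more than 2-fold lower, which is 66.7% of the genes, and 0 were more than 2-fold higher. The count depended on scaling. It was 4 of 9 with TMM library sizes and without the 20 rows of highest count, 5 with DESeq2 size factors and 8 with mean TPM. Among all 7256 genes compared 58.5% were past 2-fold lower and 12.4% past 2-fold higher, and the median log2 ratio was -1.58 over the 9 genes against -1.50 over all genes. Over all cells, both the share and the median of the surface genes thus lay near those of genes in general. Scaling moved these values: with TMM library sizes the median of all genes was -0.87 and that of the 9 genes -0.95, and higher genes made up 30.2% of all genes past 2-fold, against 17.5% with total counts. With mean TPM the medians were -1.997 and -2.17, and the higher share was 9.33%. Within title code set 1 the medians were -2.10 over all genes and -2.35 over the 9 genes. They lay farther apart in set 2, at -2.27 over all genes and -1.60 over the 9. Relative to the median of all genes, taken over all cells, GJA1 stood 1.79 and CD24 0.94 log2 units above it. CDH1 stood 1.56 and EPCAM 1.42 below it.

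Cells of the compared groups overlapped for most genes. CDH1 and CLDN6, 22.2% of the 9, were lower in all 7 fixed Triton cells than in any of the 11 live Triton cells, as were 10.3% of all genes compared. The lower levels in fixed Triton cells came with the fewer genes detected and the larger TVAS5 share given above. Their part in the ratios was not tested beyond the recount without the 20 rows of highest count, TVAS5 among them, in which the median of the 9 genes was -0.98 and that of all genes -0.90.

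Between the methods, live cells differed little when the title code sets were pooled. Only GJA1 was past 2-fold, with a higher level by FRISCR than by Triton, which is 11.1% of the 9 genes, against 6.57% of the 7447 genes compared that were more than 2-fold higher and 3.14% that were more than 2-fold lower. The median log2 ratio was 0.30 over the 9 genes and 0.10 over all genes. The title code sets were unlike. In set 1 CD24 (1.56), PODXL (1.49) and GJA1 (1.59) were past 2-fold, and in set 2 0 of the 9 were. The medians were 0.55 over the 9 genes and 0.06 over all genes in set 1, and 0.17 and 0.14 in set 2. Higher genes made up 67.6% of all genes past 2-fold, 79.0% with DESeq2 size factors and 55.9% without the 20 rows of highest count. In fixed cells 8 of the 9 genes, all but GJA1, were more than 2-fold higher by FRISCR than by Triton, 88.9% of them, against 59.8% of the 7272 genes compared, while 0 of the 9 and 10.6% of all genes were more than 2-fold lower. The count was 6 of 9 with TMM library sizes, with DESeq2 size factors and without the 20 rows of highest count. CD24 (0.48, 0.69 and 0.51) and THY1 (0.50, 0.72 and 0.53) were within 2-fold under these 3 scalings. CD24 was also within 2-fold in title code set 1 (0.90) and THY1 in set 2 (0.91). GJA1 was past 2-fold in set 1 (1.50) and within it in set 2 (0.15). The medians were 1.91 over the 9 genes and 1.53 over all genes, and with TMM library sizes 1.20 and 0.82. With TMM higher genes made up 70.8% of all genes past 2-fold, against 84.9% with total counts. In title code set 1 the medians were 2.86 over the 9 genes and 2.06 over all genes, and in set 2 1.41 and 2.25. CLDN6 alone, 11.1% of the 9 genes, was higher in every fixed FRISCR cell than in any fixed Triton cell, as were 4.95% of all genes. This comparison shares the 7 fixed Triton cells with the one of fixed and live Triton cells, so the values are not separate evidence.

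**Figure D2:**
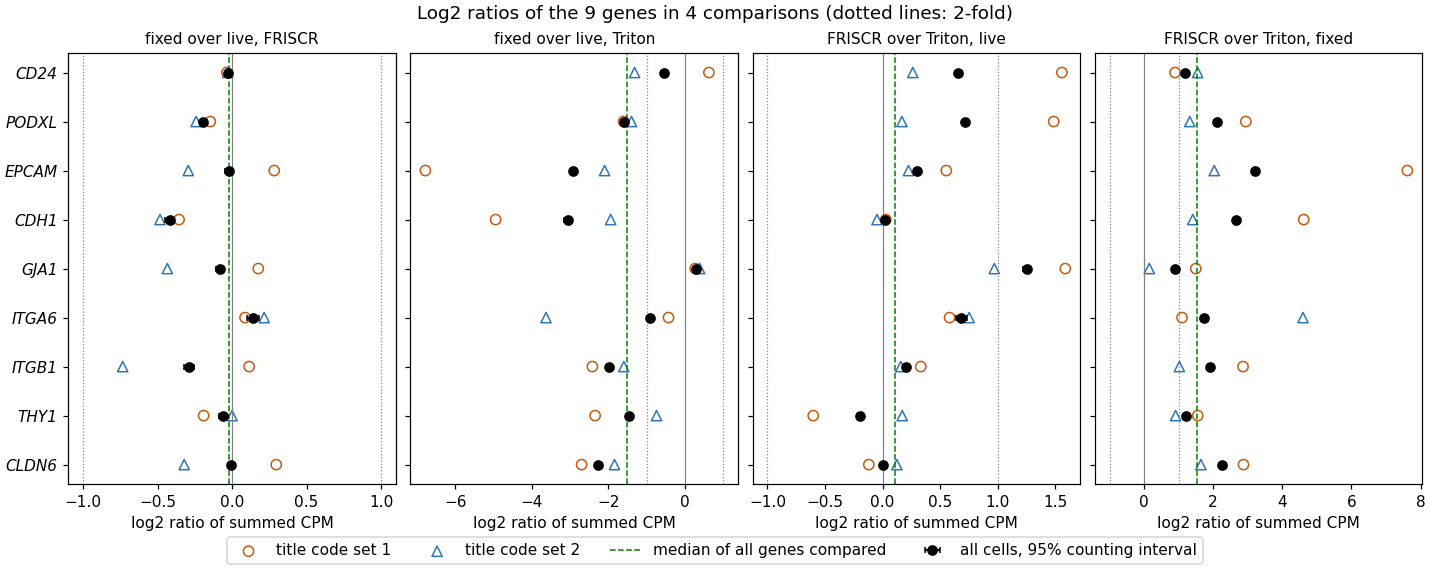
Log2 ratio of summed CPM of each gene in the 4 comparisons, over all cells (filled, with the 95% counting interval) and within title code set 1 (circles) and 2 (triangles); dotted lines mark 2-fold and the green dashed line the median of all genes compared. Points lie close to 0 for fixed over live FRISCR cells and are mostly below -1 for fixed over live Triton cells, where the title code sets also lie far apart for EPCAM, CDH1 and ITGA6.

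CD24, a GPI-anchored sialoglycoprotein, was the steadiest of the 9 transcripts among fixed cells. It had 2289 CPM in the lowest, 2799.7 in the median and 3563 in the highest fixed FRISCR cell, and 1614, 2730.3 and 3980.3 CPM in live FRISCR cells. Fixed Triton cells had 664, 1074 and 2349 CPM, against 757, 1637 and 3191 CPM in live Triton cells. The FRISCR groups lay within the same range, while 2 of 7 fixed Triton cells were below all live Triton cells. The log2 ratio of fixed over live was -0.03 under FRISCR and -0.56 under Triton, a 1.47-fold lower level (95% counting interval 1.46 to 1.49). That Triton direction did not hold throughout: it was 0.07 with TMM library sizes, 0.04 without the 20 rows of highest count and 0.63 in title code set 1, against -1.32 in set 2.

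For CD24 the title code sets differed most in live Triton cells. The 5 cells of title code set 1 had 757 to 1121 CPM of CD24 and the 6 cells of set 2 had 1637 to 3191 CPM, with no overlap. In FRISCR cells the sets overlapped. FRISCR over Triton in live cells was therefore 1.56 in set 1 and 0.26 in set 2 on the log2 scale, and 0.65 over all cells. The TVAS5 share separated the same live Triton cells, at 2.76% to 3.47% in set 1 and 6.90% to 13.0% in set 2, and is thus larger where CD24 is higher.

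THY1, the other GPI-anchored protein and a marker also of fibroblasts and of mesenchymal cells, was between 105 and 753 CPM in fixed FRISCR cells (median 549) and between 209 and 905 CPM in live FRISCR cells (median 494). It was between 34.5 and 452 CPM in fixed Triton cells (median 203) and between 232 and 1284 CPM in live Triton cells (median 492). All 7 fixed Triton cells lay below the live Triton median, and 5 lay below every live Triton cell. The Triton ratio was -1.47, or 2.78-fold lower (2.70 to 2.85), with -2.35 in title code set 1 and -0.74 in set 2. It was within 2-fold with TMM library sizes (-0.85) and with DESeq2 size factors (-0.97). For the methods in live cells THY1 was the 1 gene below 0, at -0.20, but 0.05 without live Triton cell 1, which held 25.2% of that group's THY1 counts.

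PODXL, the sialomucin named above, had 202 CPM in the lowest, 437 in the median and 953 in the highest fixed FRISCR cell, and 303, 587 and 817 CPM in live FRISCR cells. Fixed Triton cells had 5.58, 92.4 and 362 CPM, against 174, 255 and 624 CPM in live Triton cells. All but 1 fixed Triton cell lay below every live Triton cell. The Triton ratio was -1.58, 2.99-fold lower (2.88 to 3.11), and it was -1.60 in title code set 1 and -1.40 in set 2, the closest match of sets among the 6 genes past 2-fold. Without fixed Triton cell 7 it was -2.30, and with TMM library sizes it was -0.95. In live cells all 15 FRISCR cells were above the live Triton median, with a ratio of 0.72 over all cells, 1.49 in set 1 and 0.17 in set 2.

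**Figure D3:**
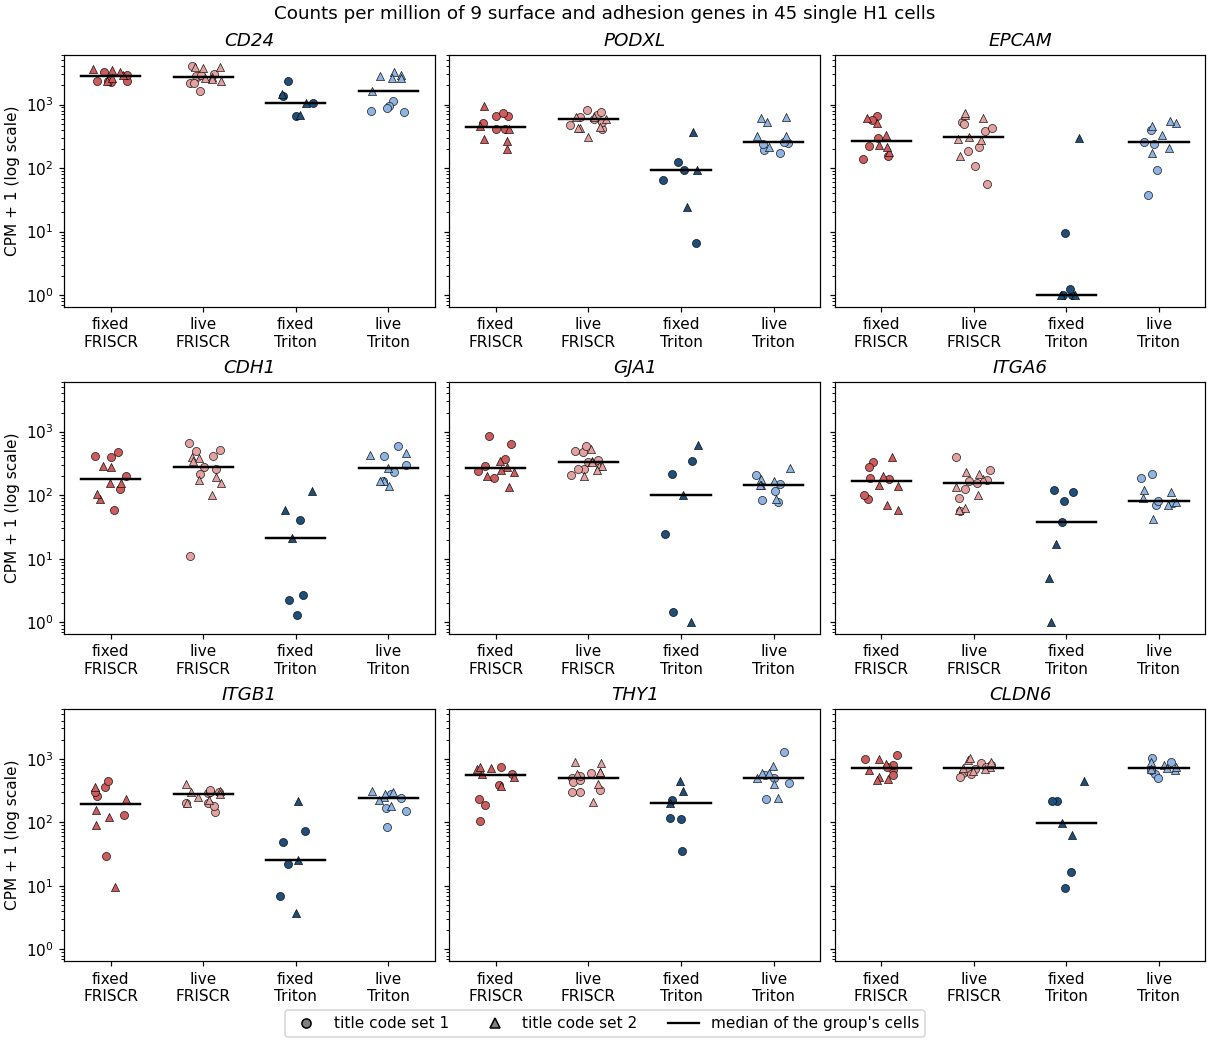
CPM (plus 1, log axis) of each gene in every cell, by group; circles are title code set 1, triangles set 2, and the black line is the group's median. The 7 fixed Triton cells spread widest for every gene except CD24, and 4 of them are at 0 for EPCAM.

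EPCAM, an epithelial adhesion molecule that is cut to release a signalling fragment, differed most between single fixed Triton cells. Of the 7 cells 4 had 0 counts, 1 had a single count, 1 had 29 counts (8.56 CPM) and cell 5 had 1107 counts (297 CPM). EPCAM ranged from 139 to 664 CPM in fixed FRISCR cells (median 263) and from 54.5 to 727 CPM in live FRISCR cells (median 303). Live Triton cells ranged from 36.9 to 546 CPM (median 252). Fixed Triton cells thus had a summed level of 39.0 CPM (exact 95% Poisson interval 36.8 to 41.3), against 295 CPM in live Triton cells, but 97.4% of those counts came from cell 5. The log2 ratio was -2.92 with that cell and -7.97 without it, and -6.78 in title code set 1 and -2.10 in set 2. After thinning to 1000000 counts EPCAM had a count in 2 of 7 fixed Triton cells (3 of 7 unthinned) and in every cell of the other 3 groups.

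CDH1 encodes E-cadherin, the calcium-dependent adhesion protein of epithelia. Fixed FRISCR cells had 56.6 CPM at the lowest, 177 at the median and 475 at the highest, and live FRISCR cells had 9.87, 280 and 664 CPM. Fixed Triton cells had 0.295, 20.4 and 116 CPM, against 139, 263 and 600 CPM in live Triton cells. Under FRISCR the cells overlapped throughout, with a ratio of -0.42, the farthest from 0 of the 9 genes. Under Triton no cell overlapped, and CDH1 was 8.37-fold lower in fixed cells (7.86 to 8.92). The log2 ratio of -3.06 was -3.84 without fixed Triton cell 6, -4.95 in title code set 1 and -1.94 in set 2. Between the methods in live cells the ratio was 0.02, and 0.03 and -0.05 in the sets.

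N-cadherin (CDH2), which replaces E-cadherin when epithelial cells become mesenchymal, was minor beside CDH1 in most cells. CDH1 made up a median of 94.4% of CDH1 plus CDH2 TPM in fixed FRISCR cells and 85.7% in live FRISCR cells, and 92.9% in live Triton cells. In fixed Triton cells the median was 13.2% in the 4 cells of title code set 1 and 100% in the 3 cells of set 2. The lowest live FRISCR cell, at 6.29%, was an exception, and the fixed Triton cells ran from 1.31% to 100%. Of the 3 genes of the mesenchymal switch that could be compared, CDH2 was at 0.21, VIM (vimentin) at -0.71 and FN1 (fibronectin) at -5.30 in fixed over live Triton cells on the log2 scale, and at -1.46, -0.78 and -0.89 in fixed over live FRISCR cells.

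CLDN6, a claudin found mainly in embryonic epithelia and pluripotent cells, was the most even of the 9 transcripts across live cells. Fixed FRISCR cells had 463 CPM at the lowest, 709 at the median and 1150.4 at the highest, and live FRISCR cells had 517, 713 and 1032 CPM. Fixed Triton cells had 8.26, 95.6 and 451 CPM, against 504, 726 and 1031 CPM in live Triton cells. The other 3 groups shared 1 range, and the fixed Triton cells lay below it without overlap. The fixed over live ratio was -0.01 under FRISCR and -2.26 under Triton, 4.79-fold lower (4.65 to 4.94), with -2.70 and -1.84 in title code sets 1 and 2 and -2.86 without fixed Triton cell 7. FRISCR over Triton was 0.00 in live cells and 2.26 in fixed cells.

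GJA1, the connexin of most gap junctions between embryonic stem cells, was the only 1 of the 9 with a fixed over live Triton ratio above 0 over all cells. It ranged from 135 to 857 CPM in fixed FRISCR cells (median 263) and from 202 to 599 CPM in live FRISCR cells (median 328). In fixed Triton cells it ranged from 0 to 607 CPM (median 99.7), against 76.0 to 267 CPM in live Triton cells (median 146). Of the 7 fixed Triton cells 3 were below and 2 above all live Triton cells. The ratio of 0.28 was 0.27 and 0.39 in the title code sets. Without fixed Triton cell 5, which held 43.6% of the group's GJA1 counts, it was -0.34. It was -0.22 with mean TPM, so it has no settled direction.

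GJA1 was also the 1 gene past 2-fold between the methods in live cells when both title code sets were pooled. Its level by FRISCR was 2.39-fold higher than by Triton (2.33 to 2.45), all 15 FRISCR cells were above the Triton median, and 10 were above every Triton cell. On the log2 scale this was 1.26, and 1.59 and 0.97 in title code sets 1 and 2, so set 2 alone fell within 2-fold. It stayed between 1.16 and 1.38 under the 5 other scalings and between 1.17 and 1.37 when any single cell was left out. In fixed cells the ratio of methods was 0.89, or 1.52 without fixed Triton cell 5.

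The integrin subunits ITGA6 (alpha 6) and ITGB1 (beta 1) form a laminin receptor on stem cells. ITGA6 ranged from 58.3 to 404 CPM in fixed FRISCR cells (median 164) and from 56.3 to 405 CPM in live FRISCR cells (median 152). In fixed Triton cells it ranged from 0 to 121 CPM (median 37.5), against 41.2 to 213 CPM in live Triton cells (median 80.2). The fixed Triton cells fell apart by title code set, with 37.5 to 121 CPM in the 4 cells of set 1 and 0, 4.02 and 16.2 CPM in the 3 cells of set 2. The ratio of fixed over live Triton cells was accordingly -0.43 in set 1 and -3.63 in set 2. Over all cells it was -0.92, within 2-fold, but -1.29 without fixed Triton cell 2.

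ITGB1 ranged from 8.74 to 449 CPM in fixed FRISCR cells (median 195) and from 145 to 405 CPM in live FRISCR cells (median 277). Fixed Triton cells ranged from 2.74 to 214 CPM (median 24.4), against 82.1 to 308 CPM in live Triton cells (median 243). Of the 12 fixed FRISCR cells 5 were under the lowest live FRISCR cell, more than for any other of the 9 genes. The FRISCR ratio was -0.29 over all cells, 0.11 in title code set 1 and -0.74 in set 2. Under Triton it was -1.99, 3.97-fold lower (3.77 to 4.18), and -3.03 without fixed Triton cell 6, which held 59.0% of the group's ITGB1 counts. Both subunits were higher by FRISCR than by Triton in fixed cells, at 1.74 for ITGA6 and 1.91 for ITGB1. In live cells these ratios were 0.68 for ITGA6 and 0.21 for ITGB1.

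The spread between cells was smaller for these genes than for genes in general. The coefficient of variation of CPM had a median over the 9 genes of 0.559 in fixed FRISCR, 0.357 in live FRISCR, 1.09 in fixed Triton and 0.502 in live Triton cells. Over all genes with at least 20 CPM it was 0.761, 0.725, 1.50 and 0.625 in the same groups. These numbers are not matched on level, and abundant genes vary less from cell to cell. CLDN6 had the lowest value in both live groups, 0.193 by FRISCR and 0.206 by Triton, and CD24 in both fixed groups, 0.177 by FRISCR and 0.464 by Triton. EPCAM had the highest in live FRISCR (0.583), fixed Triton (2.56) and live Triton cells (0.574), and ITGB1 in fixed FRISCR cells (0.676).

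As a set, the 9 transcripts did not vary together from cell to cell. Over the 38 cells other than the fixed Triton ones, with log2(CPM + 1) centred within group and title code set, the 36 pairs of genes had a median Pearson r of -0.02, with 16 above 0. All pairs of 3853 genes had a median of 0.00 and a central 95% from -0.34 to 0.40. EPCAM with CLDN6 was the highest pair at r = 0.53, and r was 0.34, 0.64 and 0.70 in fixed FRISCR, live FRISCR and live Triton cells. CDH1 with ITGA6 was the lowest at -0.36. These pairs are the extremes of the 36, and both lay outside that central 95%. GJA1 with THY1 (-0.350) and GJA1 with ITGA6 (-0.345) also lay below its lower end of -0.342. By Spearman correlation of centred CPM the highest pair was instead EPCAM with ITGB1 (0.49), and the lowest was CDH1 with THY1 (-0.30). Single pairs could differ between groups: ITGB1 with CLDN6 had r = -0.47 in fixed FRISCR, 0.54 in live FRISCR and 0.65 in live Triton cells. Cells share a culture and a preparation, and these correlations are descriptions only.

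For each gene 1 other gene had the most similar pattern over the same 38 cells, among genes that averaged 50 CPM or more. These were NAP1L3 for CD24 (r = 0.57), YIF1B for THY1 (0.57), INPP5F for PODXL (0.59), ANXA3 for EPCAM (0.63), CEBPG for CDH1 (0.75), ACBD6 for CLDN6 (0.54), LIN28A for GJA1 (0.69), NUDCD2 for ITGA6 (0.65) and SETD3 for ITGB1 (0.75). Several of these values differ between groups: CDH1 with CEBPG had r = 0.05 in live Triton cells, and ITGB1 with SETD3 had r = 0.95 in fixed FRISCR but -0.33 in live FRISCR cells. Each was picked as the highest over these same cells, so the values describe the choice and show no likeness beyond it.

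Transcript length is set beside the Triton ratios here, and its part in them was not tested. Transcript length as implied by the ratio of counts to TPM, set against the median gene, was shortest for CLDN6 (0.457) and EPCAM (0.584), which were 4.79-fold and 7.57-fold lower in fixed Triton cells. It was longest for PODXL (2.11) and ITGA6 (2.03), at 2.99-fold and 1.89-fold lower, while CDH1 (1.71) was 8.37-fold lower. Of lengths in between, CD24 (0.752) was 1.47-fold, THY1 (0.831) 2.78-fold and ITGB1 (1.34) 3.97-fold lower. GJA1 (1.10) had a log2 ratio of 0.28.

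The partners of these proteins were described by lists of related genes, counting only those that reached 20 CPM as above. A gene that reaches this level in live cells alone is bound to be lower in fixed ones, so the counts are descriptions. Under FRISCR most partners were within 2-fold in fixed cells. Of all genes compared, 7.69% were more than 2-fold lower there and 3.34% higher. Under Triton most were lower, as were most genes. The list counts below stand beside 58.5% of all genes compared that were more than 2-fold lower in fixed Triton cells and 12.4% higher.

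The intracellular partners of E-cadherin differed from one another. Of 11 adherens junction genes 5 were more than 2-fold lower and 0 higher in fixed Triton cells. CTNNA1 (alpha-catenin), which links the complex to actin, had 28.1 CPM in fixed Triton against 416 CPM in live Triton cells. CTNNB1 (beta-catenin), which binds the cadherin tail and also acts in Wnt signalling, had 964 CPM in fixed Triton against 519 CPM in live Triton cells, a log2 ratio of 0.89. Under FRISCR the list had 2 of 11 genes more than 2-fold lower, and CTNNB1 had 422 CPM in fixed against 449 CPM in live cells. Of 5 desmosome genes 4 were more than 2-fold lower in fixed Triton cells, among them the cadherin DSG2 at -1.63. Under FRISCR 2 of these 5 were more than 2-fold lower in fixed cells, with PKP2 (plakophilin-2) at -1.50 and a list median of -0.71.

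Of 13 tight junction genes 9 were more than 2-fold lower and 0 higher in fixed Triton cells, and 1 of 15 was lower and 1 higher under FRISCR. CLDN7, a claudin known to bind EPCAM, had 0.823 CPM in fixed Triton against 87.2 CPM in live Triton cells, and 119 CPM in fixed FRISCR against 181 CPM in live FRISCR cells. F11R (JAM-A), a junctional adhesion molecule, had 32.6 CPM in fixed Triton against 244 CPM in live Triton cells. Of the 10 relatives and proteases of EPCAM 8 were more than 2-fold lower and 1 higher. SPINT2, an inhibitor of the membrane protease that cuts EPCAM, was at -2.14, and PSENEN, a subunit of the gamma-secretase that releases its intracellular part, was at 1.21.

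Among the 10 genes that couple integrins to actin 8 were more than 2-fold lower and 0 higher in fixed Triton cells, and 1 of 14 was lower under FRISCR. ILK, a scaffold at the beta 1 tail, had 3.81 CPM in fixed Triton against 144 CPM in live Triton cells, and LIMS1, its binding partner, had 65.3 against 52.7 CPM. ACTN1 (alpha-actinin) had 109 CPM in fixed Triton against 395 CPM in live Triton cells. Of the other integrin subunits only 3 could be compared, and they went different ways: ITGAV was at -3.23, ITGB5 at 0.69 and ITGAE at 1.94. All 4 podocalyxin linkers were more than 2-fold lower in fixed Triton cells, namely EZR (-1.97), SLC9A3R1 (-2.18), MSN (-4.87) and RDX (-1.47), and 0 of 4 were past 2-fold under FRISCR. GJC1 (connexin 45) was at -0.60 in fixed Triton cells, and PANX1, a pannexin channel, had 0.240 CPM in fixed Triton against 23.3 CPM in live Triton cells.

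Of 17 genes of GPI anchor assembly, on which CD24 and THY1 depend, 13 were more than 2-fold lower and 3 higher in fixed Triton cells, and 2 of 18 were lower under FRISCR. DPM1, which makes the mannose donor, had 17.8 CPM in fixed Triton against 89.3 CPM in live Triton cells, PIGY had 113 against 116 CPM, and DPM3, a partner of DPM1, had 27.1 against 7.02 CPM. Among 15 other surface proteins of stem cells 13 were more than 2-fold lower and 1 higher in fixed Triton cells, and 1 of 15 was lower and 2 higher under FRISCR. BSG (basigin) was at -1.05 and the tetraspanin CD63 at -1.33, while the tetraspanin CD81 had 77.4 CPM in fixed Triton against 9.48 CPM in live Triton cells. CD81 was also more than 2-fold higher in fixed cells under FRISCR, at 47.9 against 20.7 CPM. TFRC, the transferrin receptor, had 0 counts in the 7 fixed Triton cells against 214 CPM in live Triton cells, and 120.2 CPM in fixed FRISCR against 238 CPM in live FRISCR cells.

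**Figure D4:**
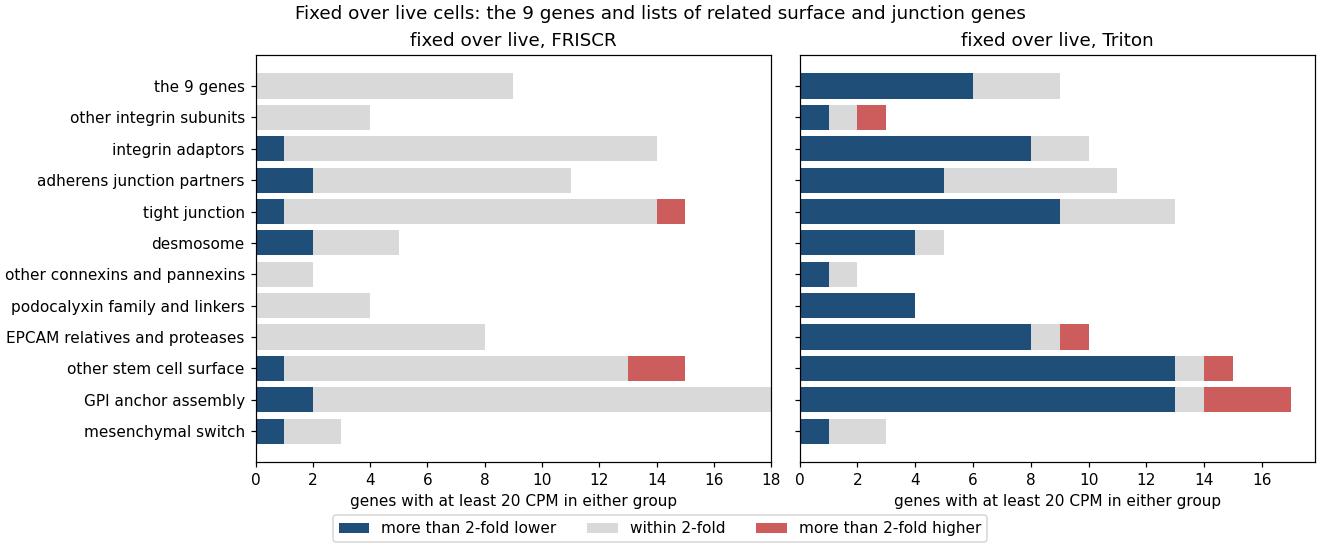
Number of genes in the 9 and in 11 lists of related genes that were more than 2-fold lower, within 2-fold, or more than 2-fold higher in fixed than in live cells, by FRISCR (left) and Triton (right), among genes that reached 20 CPM. Under FRISCR most genes of every list are within 2-fold; under Triton the lower genes are the larger part of most lists.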

How the data were processed

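Single H1 cells were made into cDNA with Smart-seq2 and into libraries with Nextera XT, per the labels' protocols, which otherwise describe cortical tissue. The authors deposited estimated counts per gene (expected counts, of which 40.3% of nonzero values were not whole to within 1e-09) and TPM values per gene. Per the submitters' processing notes the build was GRCh37 (hg19). The aligner is not given in the sources used here, nor are the quantifier and the annotation. Groups follow the labels' sample group. The sample titles instead call the Triton groups RLT and the FRISCR groups PLRC, and the meaning of these codes is not given.

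Counts were rounded, and no cell was left out and no doublets were called. Totals ranged from 3388417 to 6594043 per cell. Counts were summed over the cells of each group and scaled to 1000000 of the summed totals (CPM). Ratios of these have an exact 95% interval, by the binomial division of counts between groups, and the 95% Poisson intervals of summed CPM reached at most 5.97% below and 6.25% above the value. Both cover counting error only, and reads were not counted by molecule. Genes that reached 20 CPM in the summed counts of either group were compared, all 9 genes among them, and called past 2-fold. A sum of 0 was set at 3 counts over the group. Since each group is 1 sample, no test was made. Detection used counts thinned to 1000000. Correlations used log2(CPM + 1). Alternatives were TMM (edgeR 4.0.16), median-of-ratios (DESeq2 1.42.0), mean CPM, mean TPM, totals without the 20 highest rows, each title code set, and each cell left out, run in R 4.3.3 and Python 3.11.15. The ratio step was checked on simulated data.

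The 9 genes, the lists of related genes and all settings were chosen with earlier results of these data known. From each list the text names its 2 most abundant genes in live cells and the most extreme each way in fixed over live Triton cells, in part (1 named result is not reported here), and RDX was named after its value was seen. For each of the 9 genes it names the gene of highest correlation.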

Additional observations from a re-analysis of the deposited data

Results flagged for a closer look

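In the 7 fixed Triton cells, 3 of the 9 genes had 1 cell far above the others, by the gap to the next cell divided by the group's whole range (Dixon's 95% critical value for 7 cells is 0.568). PODXL was at 362 CPM in cell 7, against 125 CPM in the next cell (gap over range 0.664). EPCAM was at 297 CPM in cell 5, against 8.56 CPM in the next (0.971). ITGB1 was at 214 CPM in cell 6, against 70.9 CPM in the next (0.678). All 3 cells belong to title code set 2. That critical value flags about 1 in 20 groups of normally distributed values. CPM of single cells need not be so distributed, and EPCAM was at 0 in 4 of the 7 cells. The rate for such groups is therefore not known, and the flags are descriptions. The fixed Triton group was the only one of 10 or fewer cells.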

How the results depend on the processing

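No paired analysis was possible because the results come from no test. Values within each title code set, which is the number that all 4 groups share, are given in place of a block. Among the alternatives run, the number of the 9 genes past 2-fold moved by more than 1.5 times only for FRISCR over Triton in live cells. There 3 genes were past 2-fold in title code set 1 and 0 in set 2, against 1 over all cells. Smaller moves were seen for fixed over live Triton cells. The 6 genes became 4 with TMM and without the 20 highest rows, 5 with DESeq2 size factors and 8 with mean TPM. The median for fixed over live FRISCR cells was -0.11 with TMM, -0.18 with DESeq2 size factors, -0.18 with mean TPM, 0.086 in title code set 1 and -0.29 in set 2. For fixed over live Triton cells it was -0.95, -1.08 and -2.17 under these 3 scalings, -0.98 without the 20 highest rows and -2.35 in set 1. For FRISCR over Triton in live cells it was 0.26 with TMM, 0.42 with DESeq2 size factors, 0.20 without the 20 highest rows, 0.55 in set 1 and 0.17 in set 2. For FRISCR over Triton in fixed cells it was 1.20, 1.41 and 2.36 under TMM, DESeq2 size factors and mean TPM, 1.23 without the 20 highest rows, 2.86 in set 1 and 1.41 in set 2. The cause of these shifts was not tested.

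Leaving out each cell in turn gave medians of -0.11 to -0.0073 for fixed over live FRISCR, -1.76 to -1.36 for fixed over live Triton, 0.18 to 0.44 for FRISCR over Triton in live and 1.68 to 2.11 in fixed cells. The genes past 2-fold then numbered 0 to 0, 6 to 7, 1 to 1 and 8 to 9. For single genes, sign held in 160 of 162 such recounts of fixed over live Triton and the call in 158. In FRISCR over Triton fixed cells EPCAM was 8.24 and GJA1 1.52 without fixed Triton cell 5, CDH1 3.45 and ITGB1 2.95 without cell 6, and PODXL 2.81 and CLDN6 2.86 without cell 7.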
